A study of Mus musculus with 11 samples.

Results

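The mitosis and G2/M module is a list of 51 genes whose products carry cells from the end of DNA replication through chromosome segregation to cytokinesis. It was followed in CLPs (common lymphoid progenitors, from which B, T and NK lymphocytes descend), sorted into those with and those without the surface protein Ly-6D. For each gene the probe set that carries only that gene's symbol was used, and the one with the highest mean where a gene had several. By that rule 49 of the 51 genes were measured, among 22180 genes in all. Ccnb1, which encodes cyclin B1, had no such probe set, and Ncapg, a subunit of condensin, was read only by a probe set shared with another gene.

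All animals were C57BL/6 mice that received either PBS or 50 µg of CpG1826, a DNA oligonucleotide that activates the innate immune receptor TLR9, on alternate days until day 10, when CLPs were sorted from the bone marrow. The groups were Ly-6D- CLPs after PBS (3 arrays), Ly-6D- CLPs after CpG (3 arrays), Ly-6D+ CLPs after PBS (2 arrays) and Ly-6D+ CLPs after CpG (3 arrays). Each of the 11 arrays was hybridised with cDNA amplified from a few nanograms of total RNA, and all values are log2 signals. The labels do not say whether the arrays of a group came from separate mice or from pools, nor whether both populations came from the same mice, so the p-values measure the spread between these arrays. The number of arrays limits the precision. Median signals of the arrays lay between 3.85 and 3.96. Ly6d itself had a log2 signal of 12.58 ± 0.02 (SD, n = 2) in Ly-6D+ and 8.23 ± 0.24 (n = 3) in Ly-6D- CLPs after PBS. Il7r, the interleukin-7 receptor chain that defines CLPs, stood at 10.74 ± 0.03 and 10.06 ± 0.03 in the same groups, and Flt3, a cytokine receptor of early progenitors, at 10.74 ± 0.00 and 10.84 ± 0.03.

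Entry into mitosis is driven by the kinase CDK1 bound to cyclin B, which the CDC25 phosphatases switch on. Aurora and Polo-like kinases, kinesin motors and the kinetochore then build the spindle and attach chromosomes to it, while the spindle checkpoint holds back the anaphase-promoting complex (APC/C) until attachment is complete. Most of these genes are transcribed in a wave late in the cell cycle, under the transcription factors FOXM1 and B-MYB and the MuvB complex, and the MuvB complex binds an element called the cell cycle genes homology region (CHR) close to the transcription start. Lymphoid progenitors pass through phases of rapid division, so the module is a common gauge of how many cells of a sorted population are cycling.

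The promoter sequences show that element in 33 of the 43 module genes that had a promoter entry. RefSeq promoters on build GRCm38.p6, from 250 bases before to 50 bases after the annotated start, comprised 45 promoters of these 43 genes, out of 51 listed. Both strands were searched for the CHR motif TTTGAA (reverse complement TTCAAA) and for CCAAT (reverse complement ATTGG), the box bound by the factor NF-Y. Below are the 150 bases before the start of 5 genes, chosen because 2 are the textbook genes of the module, Cdk1 and Top2a, and the others are genes that differed between the populations. Capitals mark the CHR and CCAAT matches on either strand.
Cdk1, chr10:69352913-69353062, minus strand: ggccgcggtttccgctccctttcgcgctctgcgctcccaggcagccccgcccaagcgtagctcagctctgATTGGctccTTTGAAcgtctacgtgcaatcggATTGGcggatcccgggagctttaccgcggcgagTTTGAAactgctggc
Top2a, chr11:99024190-99024339, minus strand: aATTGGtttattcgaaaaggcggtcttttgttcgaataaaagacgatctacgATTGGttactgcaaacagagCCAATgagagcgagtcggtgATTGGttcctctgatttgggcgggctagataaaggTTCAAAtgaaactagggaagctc
Prc1, chr7:80294301-80294450, plus strand: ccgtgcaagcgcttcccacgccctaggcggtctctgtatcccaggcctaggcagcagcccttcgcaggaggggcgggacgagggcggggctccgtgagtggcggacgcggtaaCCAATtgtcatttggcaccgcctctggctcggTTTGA
Ncapg2, chr12:116405286-116405435, plus strand: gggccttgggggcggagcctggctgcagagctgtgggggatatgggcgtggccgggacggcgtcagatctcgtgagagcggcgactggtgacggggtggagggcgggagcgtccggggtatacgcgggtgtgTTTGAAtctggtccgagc
Cdc25b, chr2:131186798-131186947, plus strand: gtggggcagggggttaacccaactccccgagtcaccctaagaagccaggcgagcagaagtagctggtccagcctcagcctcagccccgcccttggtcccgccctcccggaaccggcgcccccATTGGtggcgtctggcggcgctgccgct

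The Cdk1 promoter holds a CHR match that begins at position -15 from the start and another at position -71, each with an ATTGG upstream. In the Top2a promoter, which belongs to the gene of the topoisomerase that untangles sister chromatids, 4 CCAAT matches, 3 of them read as ATTGG, precede a CHR match read as TTCAAA. In the printed Prc1 promoter the CHR match begins at position -5 and runs past it, so its last letter is not shown. The Ncapg2 window holds a CHR match and no CCAAT, and the Cdc25b window a single ATTGG and no CHR, which says only that those letters are not in the window. The Ndc80 promoter has its CHR match 29 bases after the start.

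Across the module, 35 of 45 promoters (77.8%) held a CHR match, against 17.9% of the 32851 mouse promoters in the table. Within 100 bases before to 50 bases after the start the shares were 73.3% and 8.01%. CCAAT was present in 73.3% of the module's promoters and 37.4% of all promoters, and both motifs in 62.2% and 6.95%. Of 47 CHR matches, 35 lay within 50 bases of the start, with a median position of -15, while the median CCAAT position was -69.5. A CHR and a CCAAT match overlapped in 1 promoter. The matches are descriptions of sequence and not of binding.

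**Figure D1:**
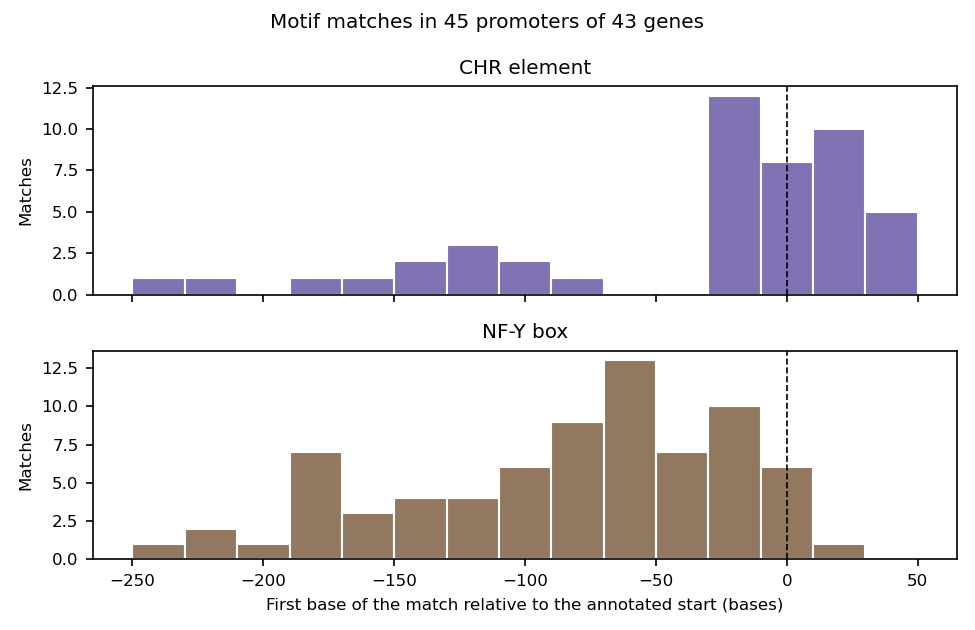
Histograms of the first base of each motif match (x axis, bases relative to the annotated start, dashed line) in the 45 promoters of the module; the y axis counts matches for the CHR element (top) and the NF-Y box (bottom). CHR matches gather within 50 bases of the start (35 of 47), and NF-Y boxes lie mostly upstream, with a median position of -69.5.

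The measured genes moved together from array to array. Each gene was expressed as its log2 deviation from its own mean over the 11 arrays, and the deviations were averaged over the 49 genes. The module mean was 0.18 and 0.13 on the 2 arrays of Ly-6D+ CLPs after PBS, and 0.05, 0.03 and 0.08 on those of Ly-6D+ CLPs after CpG. On the Ly-6D- arrays it was 0.08, 0.01 and 0.006 after CpG, and -0.11, -0.11 and -0.36 after PBS. Ly-6D+ CLPs after PBS were therefore highest and Ly-6D- CLPs after PBS lowest, with the CpG arrays of both populations between them.

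The group means were 0.16 ± 0.04 (SD, n = 2) for Ly-6D+ CLPs after PBS, 0.06 ± 0.03 (n = 3) for Ly-6D+ CLPs after CpG, 0.03 ± 0.04 (n = 3) for Ly-6D- CLPs after CpG and -0.19 ± 0.14 (n = 3) for Ly-6D- CLPs after PBS. The arrays of the 2 CpG groups overlap. Replicate 3 of Ly-6D- CLPs after PBS stood apart: 42 of the 49 genes had their lowest signal there and 0 lay above their own mean. On replicate 1 of Ly-6D+ CLPs after PBS all 49 genes lay above their own mean. On a bulk array a smaller share of cells in mitosis and less of these RNAs per cell cannot be told apart.

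**Figure D2:**
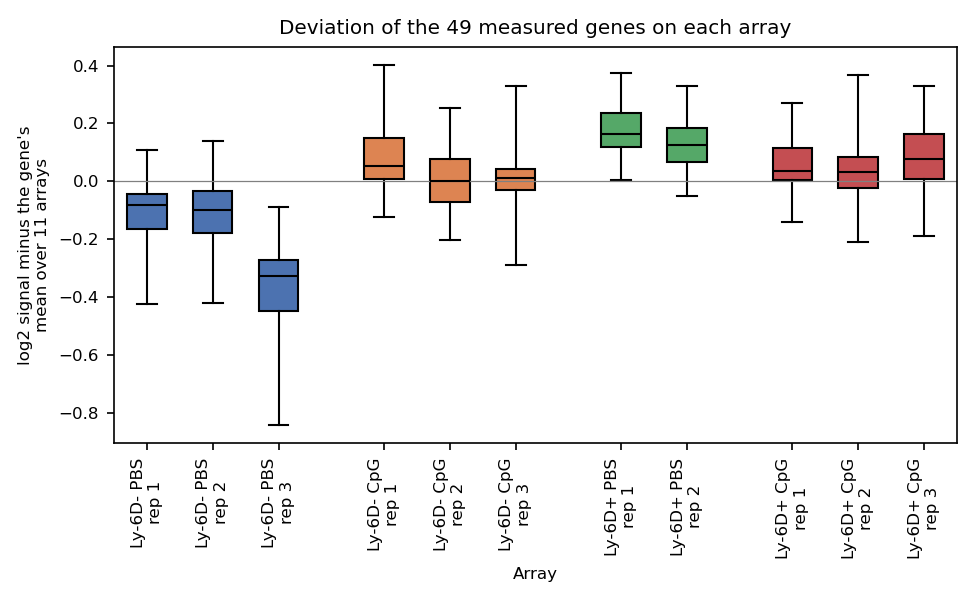
Box plots of the log2 deviation of the 49 measured genes from their own mean (y axis, log2) on each of the 11 arrays (x axis); boxes give the quartiles, the line the median and whiskers the lowest and highest gene. Replicate 3 of Ly-6D- CLPs after PBS sits lowest, with all 49 genes below their own mean, and both arrays of Ly-6D+ CLPs after PBS sit highest.

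Over the 11 arrays the median correlation between pairs of the 49 genes was 0.707, and 0.425 once group means were removed; these points share the 11 arrays and their normalisation. Positive values made up 99.5% of pairs. The gene that followed the mean of the other genes most closely was Nuf2, a kinetochore protein that contacts microtubules (r = 0.987), then Kif20b (r = 0.948), a kinesin of cytokinesis, and Ndc80 (r = 0.941), the partner of Nuf2. Mad2l1, which encodes the checkpoint protein MAD2, followed it least (r = 0.498). The span of a gene over the arrays ran from 0.28 for Ncapd2, a condensin subunit, to 1.21 for Kif4, a chromosome-bound kinesin, with a median of 0.58.

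**Figure D3:**
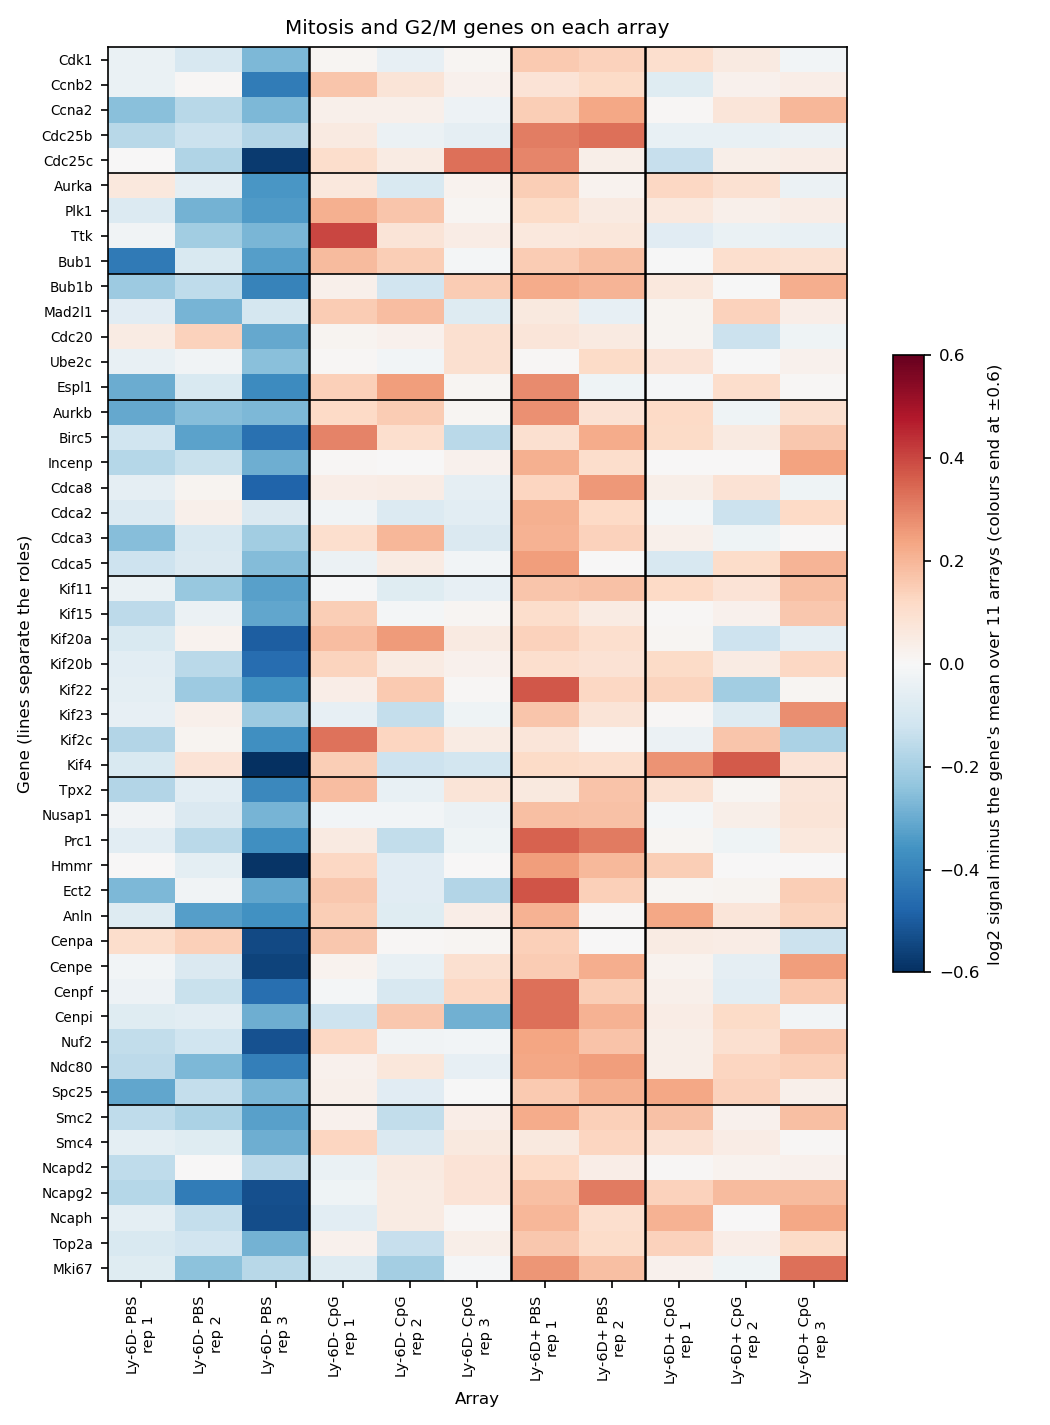
Heat map of the log2 deviation of each of the 49 measured genes (rows, in 8 roles) from its own mean on the 11 arrays (columns); red is above and blue below that mean, and colours end at 0.6 in both directions. The column of replicate 3 of Ly-6D- CLPs after PBS is blue throughout, and both columns of Ly-6D+ CLPs after PBS are mostly red.

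After PBS, mitosis and G2/M genes were higher in Ly-6D+ than in Ly-6D- CLPs. Of these, 5 genes passed in limma (Benjamini-Hochberg adjusted p below 0.05 over all genes): Cdc25b, Ncapg2, Ndc80, Prc1 and Aurkb. That is 5 of 49 genes higher, where 1.18% of all genes were, and 0 lower, where 0.798% were. All 49 genes had a positive difference, with a median of 0.37 and a range of 0.10 to 0.62, while 48.1% of all genes had one and their median was -0.01. At an unadjusted p below 0.05 the limma count was 34 higher (5.86% of all genes) and 0 lower (6.06%). In 45 of the 49 genes both Ly-6D+ arrays exceeded all 3 Ly-6D- arrays, a pattern found in 12.9% of all genes; Aurka, Cdc20, Kif2c and Cenpa overlapped.

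Cdc25b, the phosphatase that starts CDK1 activation, had log2 signals of 6.84 and 6.86 on the Ly-6D+ arrays and 6.37, 6.40 and 6.36 on the Ly-6D- arrays after PBS. The groups did not overlap, and the 1.39-fold difference (log2 0.48, SE 0.09) had the smallest adjusted p of the module (limma, adjusted p = 0.0199). Ncapg2, a subunit of condensin II, stood at 8.38 and 8.51 against 8.03, 7.78 and 7.67. Its difference of 0.62 log2 units (1.54-fold, SE 0.12) was the largest of the 49 (limma, adjusted p = 0.0223). Ndc80, the kinetochore's microtubule-binding subunit, gave 8.99 and 9.01 against 8.60, 8.49 and 8.35, a 1.43-fold difference (log2 0.52, SE 0.10; limma, adjusted p = 0.0284). Prc1, which bundles the microtubules of the spindle midzone, gave 9.15 and 9.11 against 8.73, 8.64 and 8.43, a 1.45-fold difference (log2 0.53, SE 0.11; limma, adjusted p = 0.0417). Aurkb, the kinase of the chromosomal passenger complex, stood at 9.90 and 9.72 against 9.32, 9.38 and 9.36, a 1.37-fold difference (log2 0.46, SE 0.10; limma, adjusted p = 0.0496). For each of the 5 genes both Ly-6D+ arrays lay above every Ly-6D- array.

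The difference was spread over the 8 roles. In the cyclin and CDK1 group 1 of 5 measured genes passed and the median difference was 0.41; Ccna2, cyclin A2, stood at 0.42 (limma, adjusted p = 0.0577). Cdk1 itself had signals of 10.34 and 10.32 in Ly-6D+ and 10.14, 10.09 and 9.91 in Ly-6D- CLPs, a difference of 0.28 (SE 0.10; limma, adjusted p = 0.250) with no overlap. Of the 4 mitotic kinases 0 passed (2 at an unadjusted p below 0.05 in limma), with a median of 0.28, and Plk1 differed by 0.32 (limma, adjusted p = 0.220). The spindle checkpoint, APC/C activators and separase had the lowest median of the roles, 0.17, with 0 of 5 passing and 2 at an unadjusted p below 0.05 in limma. Within that role the checkpoint kinase-like gene Bub1b stood at 0.47 (limma, adjusted p = 0.0882), while Cdc20, which activates the APC/C, stood at 0.10 and Mad2l1 at 0.16. Of the 7 genes of the chromosomal passenger complex and Cdca proteins 1 passed, with a median of 0.36.

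Among the 8 mitotic kinesins 0 passed (3 at an unadjusted p below 0.05 in limma), with a median of 0.31. Spindle, midzone and cytokinesis genes had 1 of 6 passing and a median of 0.40, and all 6 had an unadjusted p below 0.05 in limma. The 7 centromere and kinetochore genes had 1 passing and a median of 0.43, and Spc25, a partner of Ndc80, stood at 0.43 (limma, adjusted p = 0.0662). Of the 7 measured condensin, topoisomerase and chromosome surface genes 1 passed, with a median of 0.38. Top2a had 10.84 and 10.79 in Ly-6D+ against 10.59, 10.57 and 10.40 in Ly-6D- CLPs (difference 0.30, SE 0.10; limma, adjusted p = 0.239). Mki67, the chromosome surface protein used as a proliferation marker, had 9.91 and 9.83 against 9.58, 9.40 and 9.48 (difference 0.38, SE 0.13; limma, adjusted p = 0.201). Neither gene's arrays overlapped between the populations.

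The call rested on few arrays. When only the arrays of the PBS groups were fitted 0 of the 49 genes passed, with 27 higher at an unadjusted p below 0.05 in limma. When the replicate number was added as a block 0 passed, with 31 higher at an unadjusted p below 0.05 in limma. When it was blocked within treatment 0 passed, with 19 higher at that level. The whole table lost calls as well. Of 22180 genes 190, 347 and 207 passed in these fits, in that order, against 262 higher and 177 lower in the main fit. Without replicate 3 of Ly-6D- CLPs after PBS 25 genes were higher at an unadjusted p below 0.05 in limma, with 47 positive differences and a median of 0.25. In that fit 0 of the 49 genes passed, where 320 of 22180 genes did. The count was also 0 without replicate 2 of that group or without either array of Ly-6D+ CLPs after PBS, and 3 without any one of the other 7 arrays. Without replicate 1 of Ly-6D+ CLPs after PBS, 17 genes were higher at an unadjusted p below 0.05 in limma, with all 49 differences positive. Genes with a CHR match (32 measured) had a median difference of 0.36, and those with a promoter but no match (9 measured) 0.41.

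**Figure D4:**
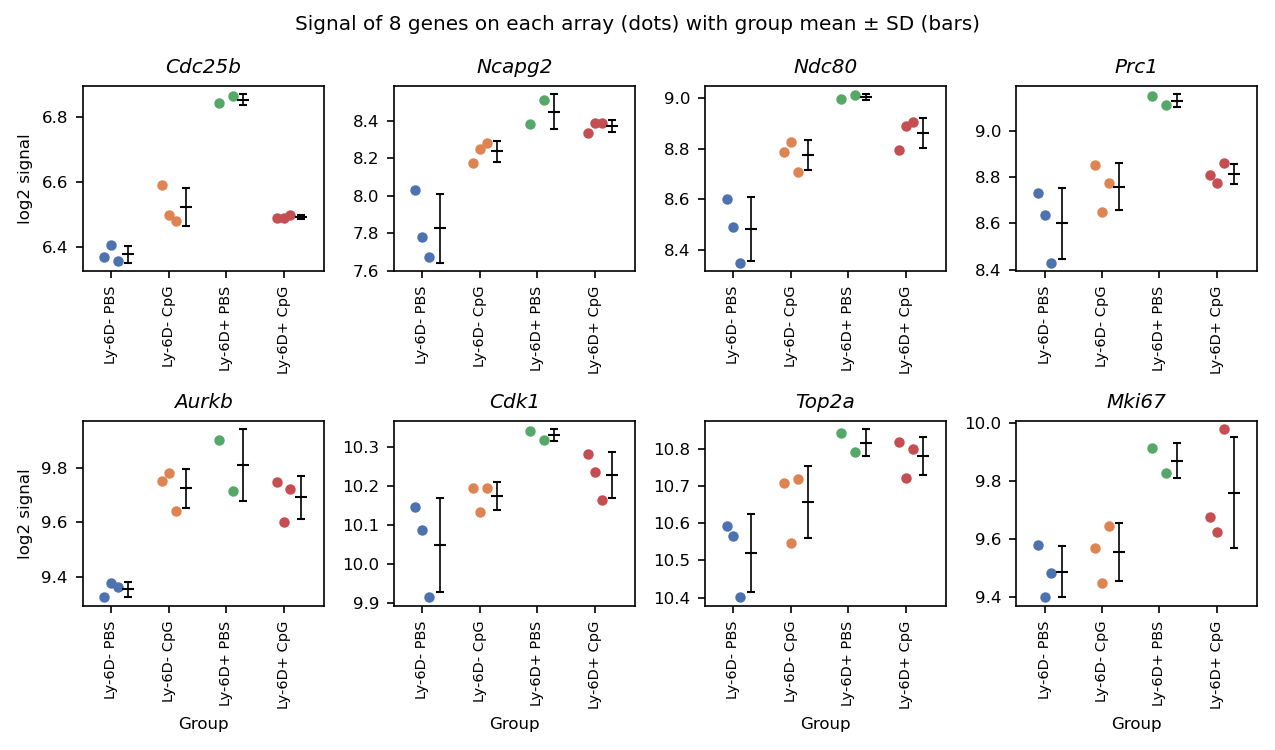
Log2 signal (y axis, a separate scale for each gene) of 8 genes on each array (dots) by group (x axis), with the group mean ± SD as bars. Cdc25b, Ncapg2, Ndc80, Prc1 and Aurkb passed between populations after PBS; Cdk1, Top2a and Mki67 did not pass, although both Ly-6D+ PBS arrays lie above the 3 Ly-6D- PBS arrays.

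Markers of other cell types also differed between these arrays. The summed linear signal of 5 measured committed B cell markers ran from 3404 to 3457 in Ly-6D+ and from 469 to 623 in Ly-6D- CLPs after PBS, and 4 of the 5 passed as higher (Cd79a, Cd79b, Pax5 and Igll1). Igll1, part of the surrogate light chain, stood at 10.64 ± 0.06 (n = 2) against 4.88 ± 0.08 (n = 3). The 5 plasmacytoid dendritic cell markers summed to 5546 to 5560 against 1977 to 2354, with 3 of 5 higher. Neutrophil and monocyte markers summed to 10157 to 12713 against 12395 to 13483, and T and NK cell markers to 1346 to 1471 against 1905 to 1950, with 0 of 6 passing in each list (3 lower in the first, and 1 higher and 1 lower in the second, at an unadjusted p below 0.05 in limma). Nearly all of the T and NK cell sum was Nkg7, at 10.40 in Ly-6D+ and 10.88 in Ly-6D- CLPs. Group means of the other markers in that list lay between 2.82 and 4.61. The 4 measured erythroid markers stayed between 110 and 242 over all groups. The part of these cell types in the difference was not tested.

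After CpG the populations showed no difference that passed in any gene of the module. Of 49 genes 0 passed in limma, where 1.2% of all genes were higher and 0.938% lower. At an unadjusted p below 0.05 the count was 0 higher (5.9% of all genes) and 0 lower (6.82%) in limma. The median difference was 0.04 (-0.004 for all genes), with 32 positive (49.1% of all genes) and 17 negative values from -0.22 to 0.27. Ttk, the checkpoint kinase MPS1, stood at -0.22 (SE 0.11; limma, adjusted p = 0.457), Mki67 at 0.21 (limma, adjusted p = 0.502), Kif11, the motor that separates the spindle poles, at 0.17 (limma, adjusted p = 0.505) and Kif20a at -0.22 (limma, adjusted p = 0.535). Arrays did not overlap in 4 genes that were higher (7.89% of all genes) and 3 that were lower (9.04%). For the 5 genes that passed after PBS the values after CpG were -0.03 for Cdc25b, 0.14 for Ncapg2, 0.09 for Ndc80, 0.06 for Prc1 and -0.03 for Aurkb. A 95% interval of -0.20 to 0.14 for Cdc25b and -0.10 to 0.37 for Ncapg2 gives the sizes that remain possible.

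**Figure D5:**
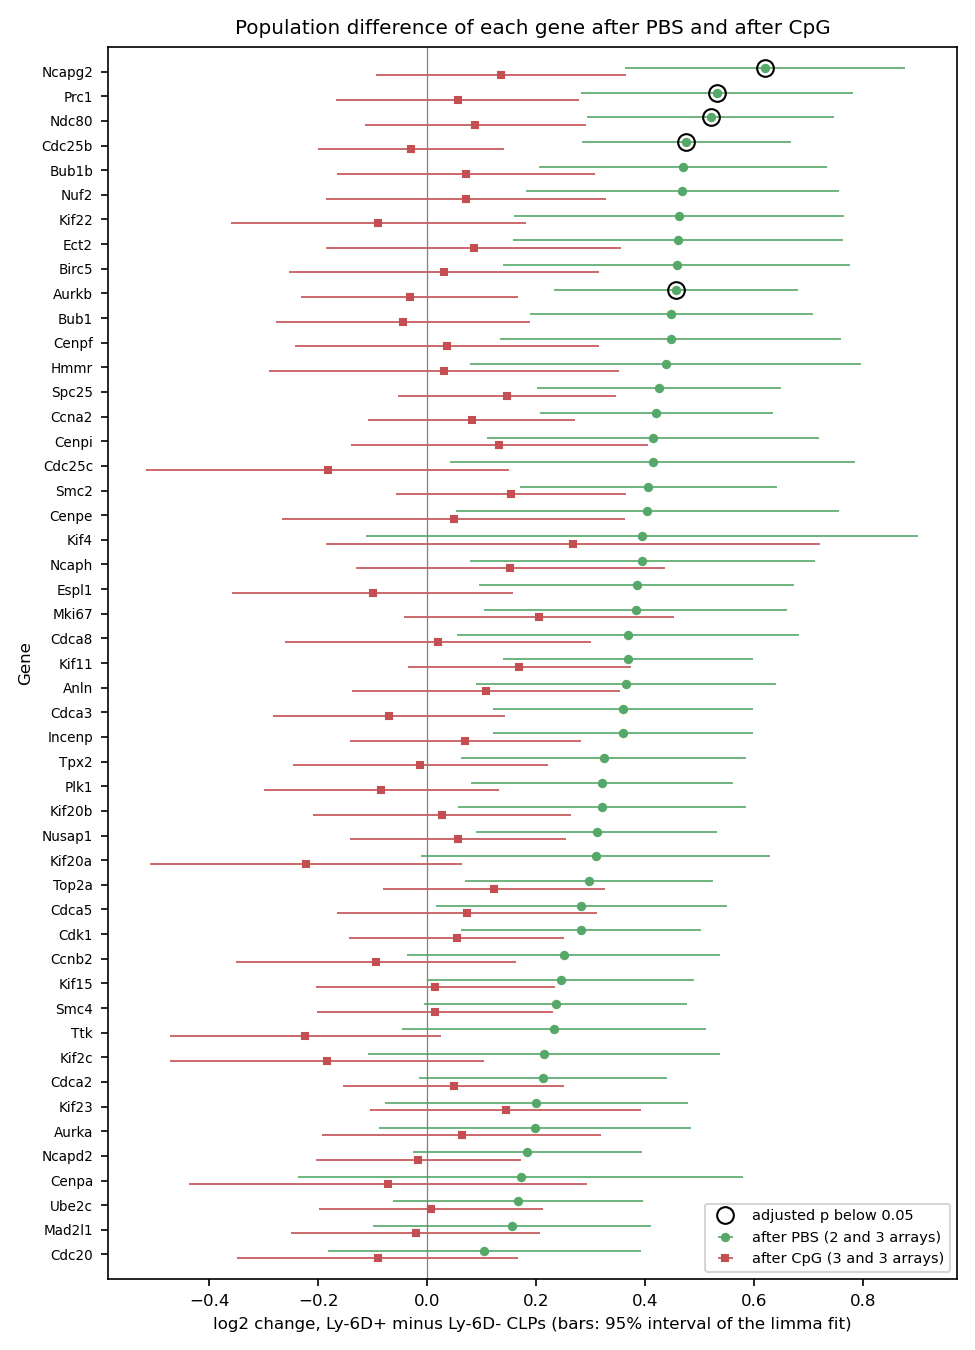
Log2 difference between Ly-6D+ and Ly-6D- CLPs (x axis) for each of the 49 genes (y axis, ordered by the value after PBS), after PBS (green circles) and after CpG (red squares), with 95% intervals of the limma fit. All 49 green circles lie above 0, with a median of 0.37 and 5 ringed genes past the threshold, and the red squares lie around 0, with a median of 0.04.

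In Ly-6D- CLPs, CpG went with higher values of the module, though no gene passed. Of 49 genes 0 passed in limma, where 0.302% of all genes were higher and 0.243% lower; 21 were higher at an unadjusted p below 0.05 (6.35% of all genes) and 0 lower (5.66%). The change was positive in 48 of 49 genes (49.8% of all genes), Cdca2 being the exception at -0.01, and the median was 0.23. In 26 genes every CpG array exceeded every PBS array, against 8.5% of all genes, and in 0 every CpG array lay below (7.2%). This comparison shares the Ly-6D- PBS arrays with the population difference after PBS, including replicate 3; without that array the median was 0.14, with 42 positive values and 9 genes at an unadjusted p below 0.05 in limma. That last count was also 9 without replicate 1 of Ly-6D- CLPs after CpG.

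Aurkb stood at 9.75, 9.78 and 9.64 after CpG and at 9.32, 9.38 and 9.36 after PBS, without overlap, a change of 0.37 (1.29-fold, SE 0.09; limma, adjusted p = 0.117). Plk1, the Polo-like kinase of mitotic entry, stood at 9.06, 9.02 and 8.86 against 8.77, 8.57 and 8.51, a change of 0.37 (SE 0.10; limma, adjusted p = 0.145). Bub1, a checkpoint kinase, gave 8.25, 8.21 and 8.05 against 7.64, 7.97 and 7.74, a change of 0.39 (SE 0.11; limma, adjusted p = 0.152). Ncapg2 changed by 0.41 (SE 0.10; limma, adjusted p = 0.135). All 4 genes had every CpG array above every PBS array. Cdk1, with a change of 0.13, and Mki67, with 0.07, had adjusted p = 0.648 and 0.886 (limma). By role the median change was highest for the mitotic kinases, at 0.35, and lowest for condensin, topoisomerase and chromosome surface genes, at 0.18. Under a variance trend with robust fitting 3 genes passed in limma: Aurkb (adjusted p = 0.0170), Plk1 (0.0366) and Ncapg2 (0.0412). In that setting 425 of 22180 genes passed. It was the only 1 of 19 alternatives in which any of these 3 genes passed.

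The marker sums moved as well in Ly-6D- CLPs: the 6 CLP markers summed to 6797 to 8342 after CpG and 9542 to 9838 after PBS. The largest signal in that sum was Dntt, at 12.01 after CpG and 12.30 after PBS. Group means of all 6 markers were lower after CpG. Il7r stood at 9.25 against 10.06, and Rag2, a recombinase subunit, at 8.85 against 9.60. Committed B cell markers summed to 495 to 547 and 469 to 623, plasmacytoid dendritic cell markers to 2245 to 2349 and 1977 to 2354, and neutrophil and monocyte markers to 12209 to 14502 and 12395 to 13483, so the arrays overlapped in these 3 sums. Within the neutrophil and monocyte list the sum is dominated by S100a8 (12.59 after CpG) and S100a9 (11.69), and 2 of its 6 genes were higher after CpG at an unadjusted p below 0.05 in limma, without overlap. Csf1r, the receptor of monocytes and macrophages, stood at 8.68 ± 0.31 against 7.61 ± 0.24 (n = 3 each; limma, adjusted p = 0.0524), and Prtn3, a neutrophil granule protease, at 10.26 ± 0.33 against 9.22 ± 0.18 (n = 3 each; limma, adjusted p = 0.0787). The T and NK cell sum was 1451 to 1606 after CpG and 1905 to 1950 after PBS, without overlap. Nearly all of that sum was Nkg7, at 10.51 after CpG and 10.88 after PBS. Group means of the other markers in that list lay between 2.86 and 3.91, near or below the median signals of the arrays. The part of these in the module's change was not tested.

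In Ly-6D+ CLPs most of the module had lower values after CpG than after PBS, with no gene passing. Of 49 genes 0 passed in limma, where 0.0271% of all genes were higher and 0% lower, and 2 were lower at an unadjusted p below 0.05 (3.38% of all genes) and 0 higher (3.13%). The change was positive in 5 genes (51% of all genes) and negative in 44. The median was -0.10 (0.003 for all genes), with a range of -0.36 to 0.13. In 16 genes every CpG array lay below both PBS arrays, against 9.76% of all genes. Cdc25b had 6.49, 6.49 and 6.50 after CpG against 6.84 and 6.86 after PBS, a change of -0.36 (SE 0.09; limma, adjusted p = 0.319). Prc1 had 8.81, 8.77 and 8.86 against 9.15 and 9.11, a change of -0.32 (SE 0.11; limma, adjusted p = 0.642). Neither gene's arrays overlapped. The next smallest p-values were those of Kif22, a chromosome-arm kinesin, at -0.27 (limma, adjusted p = 0.807) and Cdca2 at -0.17 (limma, adjusted p = 0.855), while Cenpi, a centromere protein, had a larger change of -0.22. Committed B cell markers summed to 1904 to 2624 after CpG against 3404 to 3457 after PBS, with 0 of 5 passing and 2 lower at an unadjusted p below 0.05 in limma. Mpo, a neutrophil granule enzyme, stood at 9.15 ± 0.16 (n = 3) after CpG against 10.02 ± 0.40 (n = 2) after PBS without overlap (limma, adjusted p = 0.287), the only one of 6 neutrophil and monocyte markers that was lower at an unadjusted p below 0.05. Cd3e, a T cell receptor chain, stood at 3.62 ± 0.20 against 2.98 ± 0.19 without overlap (n = 3 and 2; limma, adjusted p = 0.393). Both Cd3e means lay below the median signals of the arrays, 3.85 to 3.96. Of the other T and NK cell markers, Klrb1c (3.26 against 2.82) and Cd8a (4.93 against 4.61) were higher. Cd3g (2.90 against 2.91) and Ncr1 (3.23 against 3.40) were lower, and Nkg7 stood at 10.40 in both groups. The part of these markers in the module's values was not tested. This comparison shares the Ly-6D+ PBS arrays with the population difference after PBS.

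The difference between the CpG effects (Ly-6D+ minus Ly-6D-) was negative for all 49 genes, where 50.2% of all genes had a positive one, with a median of -0.34. It equals the population difference after CpG minus that after PBS and uses the same arrays. Its sign is therefore not a result separate from the difference after PBS, and the 49 genes moved together. Of the module 0 genes passed in limma, as 0% of all genes did, and 17 were lower at an unadjusted p below 0.05 (3.32% of all genes) and 0 higher (3.05%). Cdc25b had a difference of -0.51 (SE 0.12; limma, adjusted p = 0.538), Aurkb of -0.49 (limma, adjusted p = 0.622), Prc1 of -0.48 and Ndc80 of -0.43 (both limma, adjusted p = 0.651). The extremes were -0.60 for Cdc25c, the CDK1-activating phosphatase related to Cdc25b, and -0.06 for Kif23, a kinesin of the midzone. In 8 genes every CpG array lay above every PBS array in Ly-6D- CLPs and below in Ly-6D+ CLPs: Bub1, Ccnb2, Cdc25b, Cdca3, Kif20a, Ndc80, Nuf2 and Ttk; 0.478% of all genes had this pattern. Without replicate 3 of Ly-6D- CLPs after PBS the median was -0.21, with 14 genes at an unadjusted p below 0.05 in limma and 2 positive values. Without replicate 1 of Ly-6D+ CLPs after PBS 8 genes were lower at an unadjusted p below 0.05 in limma. No single gene passed the test of the difference.

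Averaged over the populations, 0 of 49 genes passed in limma, where 0.28% of all genes were higher and 0.203% lower. The median was 0.07, with 40 positive values (50.5% of all genes). Plk1 (0.16; limma, adjusted p = 0.429) was the only gene higher at an unadjusted p below 0.05 (5.8% of all genes), and 0 were lower (5.54%); Ncapg2 and Anln each stood at 0.17 and Mad2l1 at 0.15.

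Related genes outside the module gave a mixed picture after PBS. Their lists were chosen with knowledge of the pathway and with earlier results of these data known. Of all genes 1.18% were higher past the adjusted threshold in this comparison, and 5.86% at an unadjusted p below 0.05 in limma. Of 15 regulators of G2/M transcription 3 were higher in Ly-6D+ CLPs: E2f8 (0.87; limma, adjusted p = 0.00329), Foxm1 (0.77, 1.70-fold; limma, adjusted p = 0.0124) and E2f7 (0.75; limma, adjusted p = 0.0432), with a list median of 0.27. E2f7 and E2f8 are atypical E2F repressors of S-phase genes. Foxm1 had 8.10 and 8.18 against 7.49, 7.38 and 7.25 after PBS, without overlap, and 7.82 ± 0.16 (n = 3) against 7.50 ± 0.15 (n = 3) after CpG, a difference of 0.32 (limma, adjusted p = 0.257). Of 15 genes of APC/C subunits and of its regulators Fzr1 and Fbxo5, 0 passed (1 higher at an unadjusted p below 0.05 in limma) and the median was 0.02. Of 9 mitotic entry genes 0 passed (3 higher at an unadjusted p below 0.05 in limma), with a median of 0.16.

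Of 20 other kinetochore and checkpoint genes 2 were higher after PBS, where 1.18% of all genes were. They were Spc24 (0.80, limma adjusted p = 0.0376) and Ska1 (0.65, limma adjusted p = 0.0482), and the list median was 0.19. Of 20 other spindle, kinesin and cytokinesis genes 1 was higher, Kif18b (0.65; limma, adjusted p = 0.0371), with a median of 0.39. Of 11 cohesin and other condensin genes 1 was higher, Esco2, an acetyltransferase of sister chromatid cohesion (0.83; limma, adjusted p = 0.00840), with a median of 0.13.

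Of 31 G1/S and replication genes 5 were higher after PBS, where 1.18% of all genes were, with a list median of 0.19. They were led by Ccnd3, cyclin D3 (1.63, 3.09-fold, limma adjusted p = 3.32e-04), and E2f2 (0.91, limma adjusted p = 0.00312), followed by Ccne1, Uhrf1 and Cdc45. Of 11 CDK inhibitors and quiescence genes 1 was higher, Cdkn2c, the inhibitor p18 (0.70; limma, adjusted p = 0.00915). After CpG, Ccnd3 (1.04; limma, adjusted p = 0.00263) and E2f2 (0.60; limma, adjusted p = 0.0162) were still higher in Ly-6D+ CLPs, the only ones of these related genes that passed. In Ly-6D- CLPs E2f8 was the only listed related gene that passed after CpG (0.58; limma, adjusted p = 0.0453). Most related genes had positive changes there. Of the G1/S and replication genes 26 of 31 were positive and 9 had an unadjusted p below 0.05 in limma, Mcm10, a replication factor, among them (0.58; limma, adjusted p = 0.0543). The same counts were 19 of 20 and 8 for other spindle, kinesin and cytokinesis genes, and 19 of 20 and 5 for other kinetochore and checkpoint genes. They were 12 of 15 and 3 for regulators of G2/M transcription, and 8 of 9 and 2 for mitotic entry genes. For APC/C genes they were 13 of 15 and 0, and for cohesin and other condensin genes 7 of 11 and 1. Of all genes 49.8% were positive and 6.35% higher at an unadjusted p below 0.05 in limma. Btg2, an antiproliferative gene, fell on average over the populations after CpG (-0.51; limma, adjusted p = 0.0204).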

How the data were processed

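On 11 Affymetrix Mouse Gene 2.0 ST arrays the authors deposited log2 values, made by RMA (Partek) according to the submitters' processing notes, with versions not given in the sources used here. No counts underlie these values, so precision rests on the 11 arrays. Probe sets were named from the platform's gene table: of 41345 probe sets 23521 had 1 symbol, 1814 several and 16010 none. A linear model with a mean per group was fitted to 22180 genes with limma 3.58.1 in R 4.3.3 (empirical Bayes, Benjamini-Hochberg over all genes, threshold 0.05), and tested on simulated data. Named genes were the members that passed, the 4 with the smallest p in each comparison, and Cdk1, Mki67, Top2a, Aurkb, Plk1 and Foxm1; others were named after their values were seen. The members and lists were chosen with earlier results of these data known. Alternatives covered probe set averaging, dim genes, variance trend, array weights, centring, quantile normalisation, replicate blocks and each array left out. Promoters came from RefSeq (GRCm38.p6).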

Additional observations from a re-analysis of the deposited data

How the results depend on the processing

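Of the comparisons in the module, the number of genes that passed after PBS between populations (5) moved most. It was 8 at an adjusted p below 0.10, 14 with a variance trend and robust fitting, 7 without the dimmest genes, 4 after further quantile normalisation and 0 when only the groups compared were fitted. Leaving out each array in turn gave 0 to 3. For the named genes the adjusted p ranged over arrays left out from 0.0589 to 0.309 for Aurkb, 0.0273 to 0.116 for Cdc25b, 0.0110 to 0.159 for Ncapg2, 0.0312 to 0.154 for Ndc80 and 0.0442 to 0.218 for Prc1. The median difference after PBS ran from 0.25 to 0.40 over arrays left out, the CpG median in Ly-6D- CLPs from 0.14 to 0.28 and the median difference of the CpG effects from -0.37 to -0.21. With a variance trend and robust fitting 3 genes passed for CpG in Ly-6D- CLPs. Among all 22180 genes that fit passed 425 for this comparison and 660 between populations after PBS. When only the groups compared were fitted, 190 of all genes passed between populations after PBS. Among values of named genes, 427 kept their direction and side of the threshold, 50 lost the threshold, 3 gained it and 0 reversed. All 50 losses fell on the 5 genes that passed after PBS, since the others had no threshold to lose. Of 20 alternatives each, Aurkb lost it in 15, Prc1 in 13, Cdc25b in 8, and Ncapg2 and Ndc80 in 7 each. The cause of these changes was not tested.

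With the replicate number as a block 0 genes passed between populations after PBS (31 higher at an unadjusted p below 0.05 in limma), and 0 with the number blocked within treatment (19 higher, and 8 lower for the difference of CpG effects), where the median was 0.25 and that of the difference of CpG effects -0.21. Of all genes 347 passed between populations after PBS with the first block and 207 with the second. Same-numbered arrays of the same treatment had correlations of -0.006 to 0.176 between their deviations, and differently numbered ones -0.127 to 0.039. Of the arrays, 8 of 11 correlated best with an array of their own number. The labels do not say whether the numbers pair the samples, and these values do not settle it. The 2 or 3 arrays per group limit what can be detected, and the deposited values give no signal over background.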
